A study of Mus musculus with 2 samples.

Results

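Skeletal stem and progenitor cells are commonly purified with antibodies against proteins on the cell surface, and 6 genes that encode such proteins are described here in the embryonic coronal suture: *Cd200*, *Thy1*, *Nt5e*, *Mcam*, *Cd44* and *Lepr*. They were chosen by symbol and make up 6 of the 31053 genes listed for the E15.5 library (E, embryonic day) and 6 of the 27998 listed for E17.5. All 6 were found in both lists. The suture is the fibrous joint between the frontal and parietal bones of the skull, and its cells were profiled by droplet single-cell RNA sequencing (10x Chromium 3′ v2) in wild type C57/BL6 mouse embryos, with skin, brain and part of the meninges removed. No genotype or treatment was compared. For E15.5, sutures were pooled in 1 batch, digested with Collagenase II and Dispase, and cleared of dead cells with a kit. The E17.5 library joined sutures from 2 litters in 3 batches, digested with Collagenase IV, each sorted to remove debris, doublets and likely dead cells. Its barcodes carry 3 suffixes, which the files do not match to the batches. Stage, enzyme, sorting, embryos and sequencing site all differ between these libraries, so their effects cannot be told apart.

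The mouse skeletal stem cell is usually sorted as CD51 (*Itgav*) and CD200 positive and as negative for Thy1, 6C3 (*Enpep*), CD105 (*Eng*), CD45 (*Ptprc*) and Tie2 (*Tek*). CD200, an immunoglobulin superfamily glycoprotein, is the ligand of an inhibitory receptor on myeloid cells, while Thy1 (CD90) is a small immunoglobulin superfamily protein held in the membrane by a lipid anchor. Nt5e (CD73) is a lipid-anchored enzyme that makes adenosine from AMP outside the cell, and together with CD90 it is a classical marker of cultured stromal cells. Mcam (CD146) is an adhesion molecule of pericytes and endothelium, Cd44 is the main receptor for the matrix polymer hyaluronan, and Lepr, the leptin receptor, marks stromal cells of the adult bone marrow. The libraries report RNA, not the surface protein that an antibody detects.

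The authors' labels put 5335 cells at E15.5 and 6830 cells at E17.5 into 15 clusters: osteogenic OG1 to OG4, proliferating osteogenic PO1 and PO2, ectocranial EC1 to EC4, ligament-like LIG and meningeal MG1 to MG4. These cells held 48607817 and 92585034 unique molecular identifiers (UMIs), a median per cell of 8510 and 12301.5 UMIs. Between the libraries 42 barcode sequences were shared, 5 of them with the same suffix. Of 42 marker and cluster pairs that define the labels, 39 in the E15.5 library and 40 in the E17.5 library were at least 2-fold above the other labelled cells. MG1 showed 1 of 3 markers at E15.5, where it held 28 cells, and OG2 showed 1 of 3 at E17.5. At E15.5 the clusters OG2, PO1 and PO2 nearly lacked the osteoblast genes *Sp7* (4.14, 1.96 and 10.3 CPM, UMIs of the gene per 1000000 UMIs) and *Dlx5* (3.41, 6.86 and 4.13 CPM), whereas at E17.5 *Sp7* stood at 172, 180 and 156 CPM in them. Markers of OG2 itself differed the other way, with *Crabp1* at 1742 CPM in the E15.5 library and 88.5 CPM later. The same label in these 3 clusters therefore held cells with different marker RNA in each library, and values there are given with that measurement. Other labels were not free of it, since *Sp7* went from 2.93 to 110 CPM in EC1 and from 15.1 to 91.9 CPM in OG1.

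The genes lie on 4 chromosomes of the GRCm38 build. *Thy1* (ENSMUSG00000032011, chr9:44043384-44048579, plus strand) and *Mcam* (ENSMUSG00000032135, chr9:44134469-44142727, plus strand) were 85.9 kb apart with 9 annotated genes between them, 5 of them protein coding. *Nt5e* (ENSMUSG00000032420) was on the same chromosome at chr9:88327197-88372092, plus strand. *Cd200* (ENSMUSG00000022661) spanned chr16:45382135-45409053, minus strand, *Cd44* (ENSMUSG00000005087) spanned chr2:102811141-102901665, minus strand, and *Lepr* (ENSMUSG00000057722) spanned chr4:101717404-101815352, plus strand. No member overlapped a gene on its own strand. On the opposite strand an antisense gene, *Gm10687*, touched 1 exon of *Mcam*, and a small nuclear RNA gene, *Gm23731*, lay within *Cd44* without touching an exon.

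The 250 bases before the start of *Cd200* and of *Cd44* are shown because these genes had the steadiest cluster pattern of the 6 in both libraries, each led by a different kind of cell. The sequences are from RefSeq (GRCm38.p6), 5′ to 3′ on the gene's strand. Capitals mark the cyclic AMP response half-site CGTCA, the GC box GGGCGG and the TCF/LEF core CAAAG, searched with the RUNX core TGTGGT on both strands.
Cd200, chr16:45409054-45409303, minus strand: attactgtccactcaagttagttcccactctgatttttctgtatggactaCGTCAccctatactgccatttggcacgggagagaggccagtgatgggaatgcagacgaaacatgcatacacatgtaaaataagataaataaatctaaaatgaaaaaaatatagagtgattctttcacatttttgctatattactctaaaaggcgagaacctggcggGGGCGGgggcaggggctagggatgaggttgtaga
Cd44, chr2:102901666-102901915, minus strand: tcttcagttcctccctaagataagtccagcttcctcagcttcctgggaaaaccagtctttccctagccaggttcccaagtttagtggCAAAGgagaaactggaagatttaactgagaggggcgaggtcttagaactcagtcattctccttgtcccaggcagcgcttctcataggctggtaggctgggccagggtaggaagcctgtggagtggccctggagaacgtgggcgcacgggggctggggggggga
The *Cd200* window held a CGTCA beginning at position -200 and a GGGCGG at -34 from the start, and 42.4% of its bases were G or C, against a median of 52.4% over all 32851 mouse promoter windows. The *Cd44* window held a CAAAG at -163 and was 56.4% G or C. TGTGGT was in neither. Of all windows of this length, 17.8% held CGTCA, 32.7% GGGCGG, 48.6% CAAAG and 14.05% TGTGGT, so these short matches are common and describe the letters only.

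UMIs were summed over the cells of a cluster in each library and divided by all UMIs of those cells, giving CPM. With 1 library per stage there is no replicate and no test. Intervals are exact 95% intervals that cover counting error only. For a count of 0 the limit given is that of 3 counts over the total. A difference was counted when it reached 2-fold. Clusters had been built from the RNA of the same cells, so a cluster against the others is a description. A gene and cluster were counted as above, or below, when the level was at least 2-fold above, or below, that of all other labelled cells in both libraries. Of 90 member and cluster pairs, 3 (3.33%) were above, while the background over 182250 pairs of 12150 genes with at least 50 UMIs in each library was 1.88%. Below were 18 (20.0%), against a background of 4.64%. Of those 18, 7 were *Cd200*, whose other cells include OG4, where it was highest. The 3 above were *Cd200* in OG4, *Cd44* in EC2 and *Lepr* in EC4, 1 osteogenic and 2 ectocranial clusters.

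**Figure D1:**
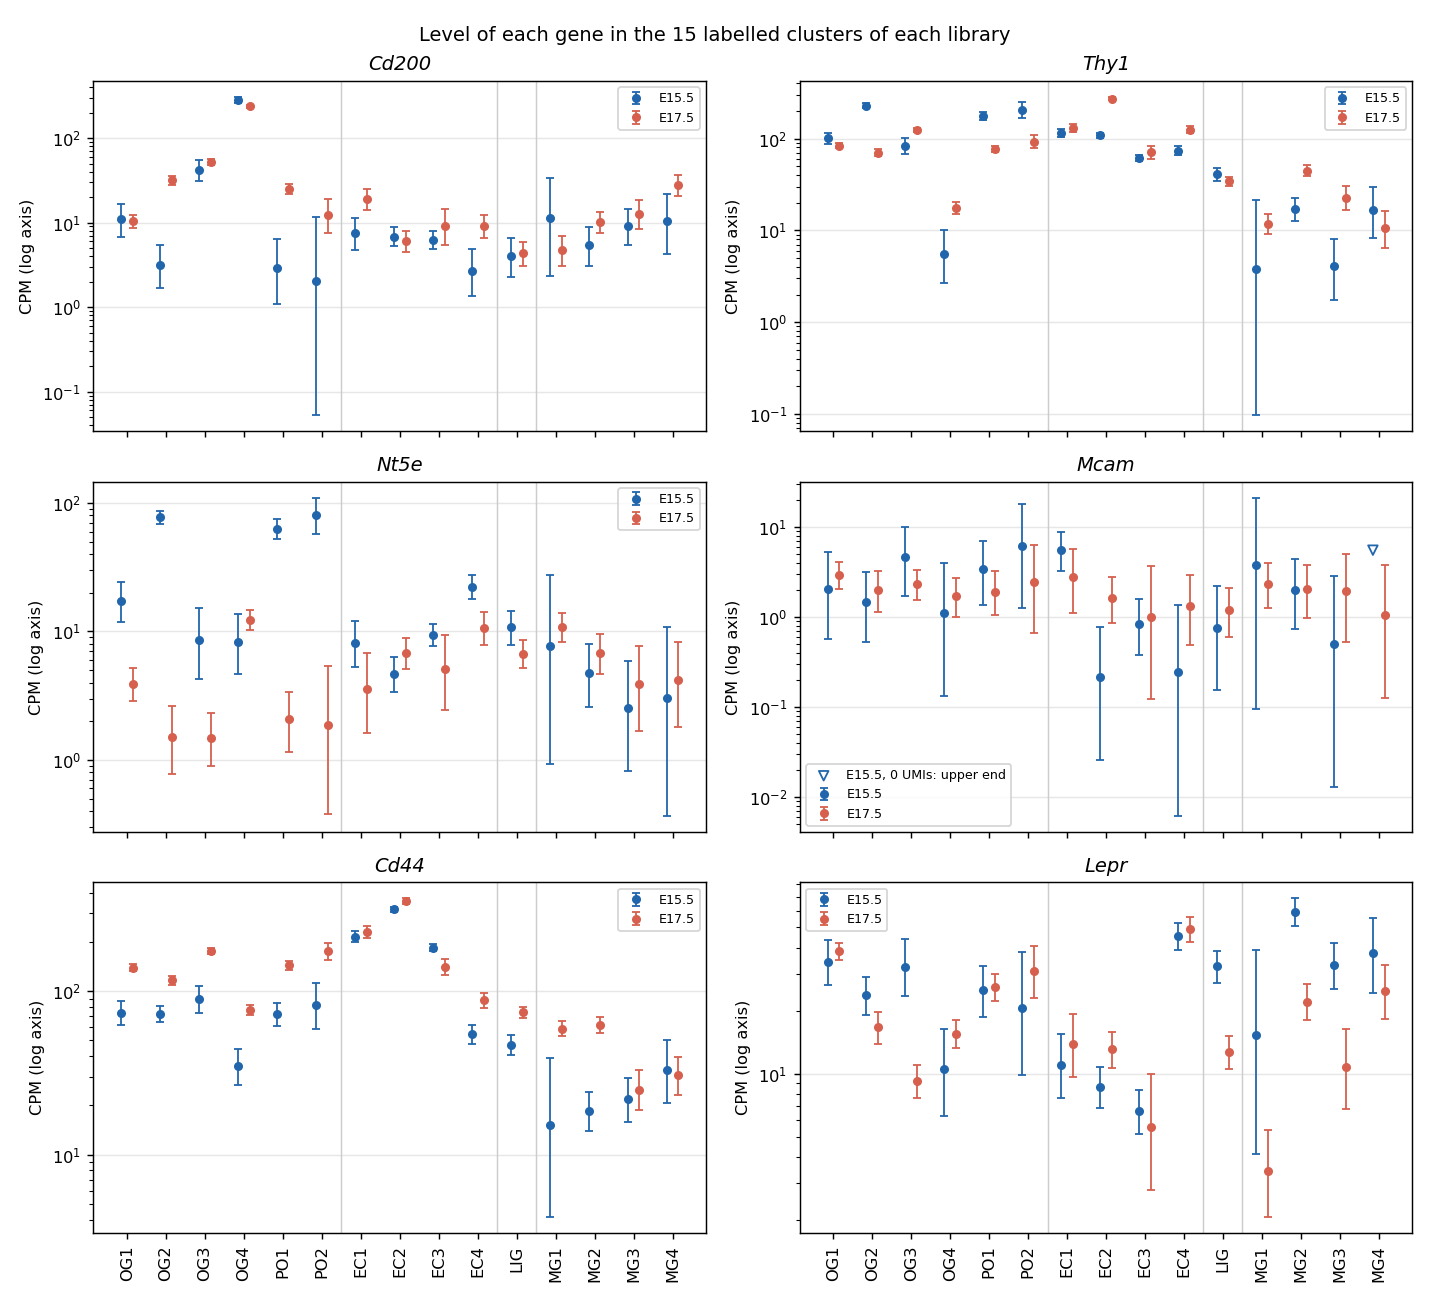
Level of each gene (CPM, log axis) in the 15 labelled clusters of the E15.5 and the E17.5 library, with exact 95% Poisson intervals for counting error. *Cd200* stands highest in OG4 at both stages (281 and 237 CPM), *Cd44* in EC2 (317 and 356 CPM), and *Nt5e* in OG2, PO1 and PO2 at E15.5 only, among the labelled clusters.

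Among labelled clusters *Cd200* was highest in OG4 at both stages. OG4, the cluster marked by the mature osteoblast genes *Ifitm5* and *Dmp1*, held 508 *Cd200* UMIs in 190 cells at E15.5 (281 CPM, 95% interval 257 to 306) and 2489 UMIs in 527 cells at E17.5 (237 CPM, 228 to 247). That level was 41.2-fold (35.7 to 47.5) and 12.2-fold (11.4 to 13.0) above the other labelled cells. The background share of genes above in OG4 was 3.02%. *Cd200* is among the genes the study plotted for OG4, so its place there is not independent of the label. The 3 barcode suffixes of E17.5 gave 244, 235 and 236 CPM, which lay within each other's intervals.

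OG3, marked by *Mmp13*, came next, at E15.5 with 41.7 CPM (31.4 to 54.5) and then with 52.1 CPM (48.2 to 56.2), so that OG4 exceeded it 6.73-fold (5.07 to 9.08) and 4.55-fold (4.18 to 4.96). At E15.5 every other cluster lay between 2.07 and 11.5 CPM, and their intervals overlapped from one rank to the next. Osteogenic and proliferating osteogenic clusters together held 72.9% and 91.5% of the *Cd200* UMIs of labelled cells. The same clusters held 23.98% and 56.33% of all UMIs of labelled cells. The larger *Cd200* share at E17.5 therefore also reflects their larger share of all UMIs. *Cd200* was below the other cells in 7 clusters, namely PO2, EC1 to EC4, LIG and MG2.

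A *Cd200* UMI was found in 71.6% of the earlier and 90.1% of the later OG4 cells, but OG4 cells were sequenced to a median of 7351.5 and 19349 UMIs. After each cell was thinned to 3000 UMIs, the shares were 49.4% (41.8 to 57.1) and 49.0% (44.6 to 53.3). Myeloid-like cells, which should lack the ligand, stood at 0.79% and 1.62% after the same thinning, or 3.31% and 4.31% as deposited at median depths of 8798 and 9206 UMIs. Single OG4 cells held up to 16 *Cd200* UMIs at E15.5 and 22 at E17.5.

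Outside OG4, *Cd200* was at least 2-fold higher at E17.5 in 6 clusters. Over all members 18 of 90 pairs (20.0%) were at least 2-fold higher at E17.5, against a background of 9.36%, and 17 (18.9%) were lower, against 10.5%. In OG2 it went from 3.17 to 31.7 CPM, 9.99-fold (5.74 to 19.0), and in PO1 from 2.94 to 25.0 CPM, 8.52-fold (3.84 to 23.5). *Sp7* also differed between the libraries in both clusters, as it did in EC1, from 2.93 to 110 CPM, and in EC4, from 4.15 to 34.1 CPM. In PO2, EC1, EC4 and MG4 the ratios were 5.98, 2.54, 3.40 and 2.65, and the interval for PO2 (0.96 to 248) did not leave out 1. OG4 itself differed by 0.84-fold (0.77 to 0.93), short of the limit. The 1 lower pair was MG1, with 3 and 26 UMIs and an interval of 0.126 to 2.13.

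In OG4, where *Cd200* was highest among the labelled clusters, *Thy1* was low. The E15.5 library held 10 of its UMIs there (5.53 CPM, 2.65 to 10.2) and the E17.5 library 183 (17.4 CPM, 15 to 20.2). After thinning, 0.57% and 3.61% of OG4 cells held a *Thy1* UMI, no more than the 1.84% and 3.95% of myeloid-like cells, and those shares are read as background. *Thy1* was below the other cells in OG4, LIG, MG1, MG3 and MG4, where the background shares of genes below were 13.4%, 3.34%, 1.56%, 6.19% and 3.46%. In OG3, which ranked next for *Cd200*, *Thy1* was not low, at 83.5 and 125 CPM.

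Among labelled clusters *Thy1* was highest in OG2 in the E15.5 library and in EC2 in the E17.5 library. At E15.5 OG2 led with 228 CPM (213 to 243), followed by PO2 with 204 (166 to 249) and PO1 with 175 CPM (157 to 194), whose intervals overlapped in that order. OG2 exceeded OG4 41.2-fold (22.3 to 86.2). At E17.5 OG2, PO2 and PO1 held 70.4, 92.6 and 77.2 CPM, which is 0.31-fold (0.28 to 0.34), 0.45-fold and 0.44-fold of E15.5. EC2, the cluster marked by *Pi16* and *Ly6a*, led there with 272 CPM (260 to 283), from 108 CPM at E15.5, a ratio of 2.52 (2.33 to 2.72). It exceeded the next cluster, EC1, 2.09-fold (1.86 to 2.35).

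Among the suffixes of E17.5, EC2 held 303, 257 and 261 CPM of *Thy1*, each above the E15.5 level. In OG2 the 3 suffixes held 78.4, 66.6 and 71.7 CPM, each below the E15.5 level. Over the 6 osteogenic and proliferating clusters *Thy1* went from 146 to 77.9 CPM, and over the 4 ectocranial clusters from 85.1 to 188 CPM, and all labelled cells together held 87.3 and 85.5 CPM. Of the ectocranial clusters only EC2 passed 2-fold, while EC1, EC3 and EC4 had ratios of 1.14, 1.16 and 1.70. That sum also reflects the cells of EC3, 1185 at E15.5 and 194 at E17.5. The osteogenic sum followed OG2, PO1 and PO2, which together went from 210 to 75.4 CPM, a ratio of 0.360 (0.333 to 0.389). These 3 nearly lacked *Sp7* and *Dlx5* at E15.5, and the part of that in the difference was not tested. OG3 went the other way, with a ratio of 1.49 (1.23 to 1.83). OG4 had a ratio of 3.15 (1.68 to 6.69), but its shares of cells with *Thy1* were read as background in both libraries. Beside EC2, OG4, MG2 and MG3 were at least 2-fold higher at E17.5, the last pair by 2.61- and 5.54-fold, all 3 from levels of at most 17.2 CPM, and the ratio in MG1, 3.09 (0.536 to 124), rested on 1 UMI at E15.5.

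At a fixed depth few cells held RNA of both *Cd200* and *Thy1*. With 3000 UMIs per cell, 0 of 176 OG4 cells held both in the E15.5 library, a count that allows up to 1.70%, and 0.76% did in the E17.5 library, while 49.4% and 48.2% held *Cd200* only. In OG3, where both genes were present, 0 of 133 cells (which allows up to 2.26%) and 2.70% held both, where 1.76% and 3.26% would if the genes were unrelated. Over all labelled cells 0.39% and 0.79% held both, where 0.69% and 1.59% would if unrelated. As deposited, 3.68% and 24.3% of OG4 cells held both at their median depths of 7351.5 and 19349 UMIs, close to the 3.01% and 23.1% of unrelated genes. In OG3 the as-deposited shares were 2.14% (0.444 to 6.13) and 17.8% (15.4 to 20.4), below the 7.91% and 20.6% of unrelated genes.

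**Figure D2:**
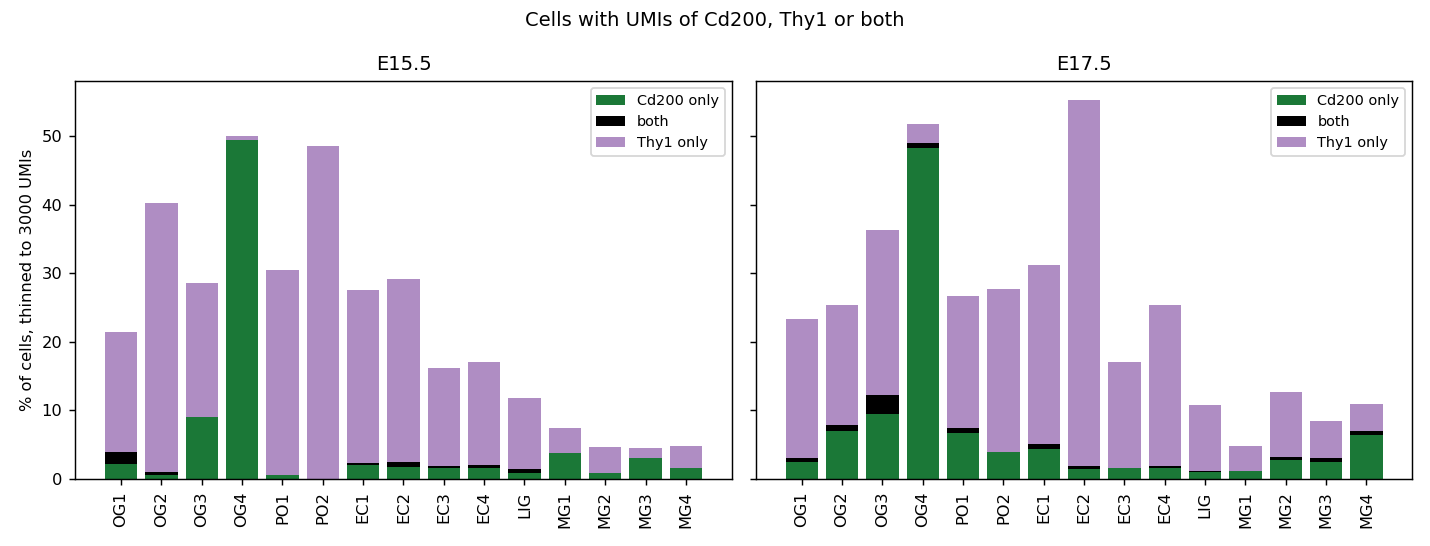
Stacked shares of cells (percent, after thinning to 3000 UMIs) with UMIs of *Cd200* only, both genes or *Thy1* only, in the 15 clusters of each library. The OG4 bars are almost wholly *Cd200* only (49.4% and 48.2%), and outside OG4 *Thy1* only exceeds *Cd200* only, except in MG1 and MG3 at E15.5 and MG4 at E17.5.

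The combination used to sort skeletal stem cells was also scored in single cells, as *Cd200* and *Itgav* UMIs with none of *Thy1*, *Enpep*, *Eng*, *Ptprc* and *Tek*. OG4 held it in 45 of 190 cells of the E15.5 library (23.7%, 17.8 to 30.4) and 121 of 527 of the E17.5 library (23.0%, 19.4 to 26.8). Those cells came from 61 and 234 OG4 cells with both *Cd200* and *Itgav*. Over all labelled cells 1.29% (69 cells) and 3.38% (231 cells) held it. Outside OG4 the highest shares were OG3 in the earlier library, with 7 of 140 cells, and PO1 in the later, with 4.68%. OG2 gave 0 of 488 cells, which allows up to 0.615%, and then 2.87%. After thinning, OG4 held 6.25% (3.16 to 10.9) and 5.31% (3.56 to 7.59). *Itgav* itself, the CD51 integrin subunit, was neither above nor below in any cluster. A missing UMI does not show that the protein is absent, so the score is a count of RNA patterns and not of sorted cells.

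*Nt5e* was the member whose pattern differed most between the libraries. At E15.5 it was highest in PO2 (39 UMIs, 80.6 CPM, 57.3 to 110), OG2 (318 UMIs, 77.5 CPM, 69.2 to 86.5) and PO1 (128 UMIs, 62.7 CPM, 52.3 to 74.5). In the E17.5 library the same labels held 3, 12 and 15 UMIs, or 1.85 (0.382 to 5.41), 1.51 (0.782 to 2.64) and 2.06 CPM (1.15 to 3.40). The E15.5 level was thus 43.5-fold (13.8 to 220), 51.2-fold (28.9 to 100.2) and 30.4-fold (17.7 to 55.9) that of E17.5.

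An *Nt5e* UMI was found in 45.7% of the earlier and 2.30% of the later OG2 cells. After thinning the shares were 22.9% and 0.383%, the second of which was no more than the 0.72% of myeloid-like cells and is read as background. In OG2 the suffixes of E17.5 gave 1.72, 1.12 and 1.88 CPM, and in PO1 2.22, 1.97 and 2.11 CPM. Among all genes with a ratio in OG2, 0.292% had a lower one than *Nt5e*. The share of genes at least 2-fold lower at E17.5 was 15.6% in OG2, 13.0% in PO1 and 11.5% in PO2. The lower markers of OG2 in that cluster and the higher *Sp7* of all 3 clusters at E17.5 moved with this difference, and their part in it was not tested.

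*Nt5e* stood further apart between the libraries in those 3 clusters than elsewhere. Summed over OG2, PO1 and PO2 it went from 73.2 to 1.78 CPM, a ratio of 0.0244 (0.0163 to 0.0353), and over the other 12 clusters from 9.17 to 6.44 CPM, a ratio of 0.702 (0.613 to 0.805). OG1, OG3, EC1 and EC4 were also at least 2-fold lower, by ratios of 0.23, 0.17, 0.44 and 0.48. Only OG3 passed the limit in each suffix of E17.5. By suffix the ratio was 0.59, 0.12 and 0.25 in OG1, 0.62, 0.52 and 0.23 in EC1, and 0.83, 0.27 and 0.44 in EC4. The EC1 ratio rested on 25 and 9 UMIs (0.180 to 0.970). OG4 held 8.29 CPM (4.64 to 13.7) and then 12.4 CPM (10.3 to 14.7), a ratio of 1.49 whose interval (0.873 to 2.75) held 1. The meningeal clusters together went from 3.92 to 7.63 CPM, a ratio of 1.94, short of 2-fold but with an interval that left out 1. Each of them alone had a ratio between 1.40 and 1.54 with an interval that held 1. The sum also reflects the cells of MG1, 28 at E15.5 and 423 at E17.5. OG4 ranked first among labelled clusters at E17.5, with EC4 and MG1 at 10.7 and 10.9 CPM inside overlapping intervals.

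Ratios to the other labelled cells changed side in 5 of 90 pairs (5.56%), against a background of 0.424%, and all 5 were *Nt5e*: OG2, PO1 and PO2 went from above to below, and OG4 and MG1 from below to above. The MG1 value at E15.5 rested on 2 UMIs. These pairs are not independent, since the other cells of OG4 and MG1 include OG2, PO1 and PO2. Between the libraries the *Nt5e* levels of OG4 and MG1 themselves had ratios of 1.49 (0.873 to 2.75) and 1.43 (0.378 to 12.1). Pearson's r of log2(CPM + 10) between the libraries, over 15 clusters that share library and depth, was -0.47 for *Nt5e*. It was 0.88 for *Cd44*, 0.85 for *Cd200*, 0.79 for *Thy1*, 0.75 for *Mcam* and 0.54 for *Lepr*, and its median over all genes was 0.53. At E15.5, *Thy1* and *Nt5e*, the pair of classical stromal cell markers, were found in the same cell in 33.0% of OG2 cells as deposited, where 30.6% would hold both if unrelated.

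**Figure D3:**
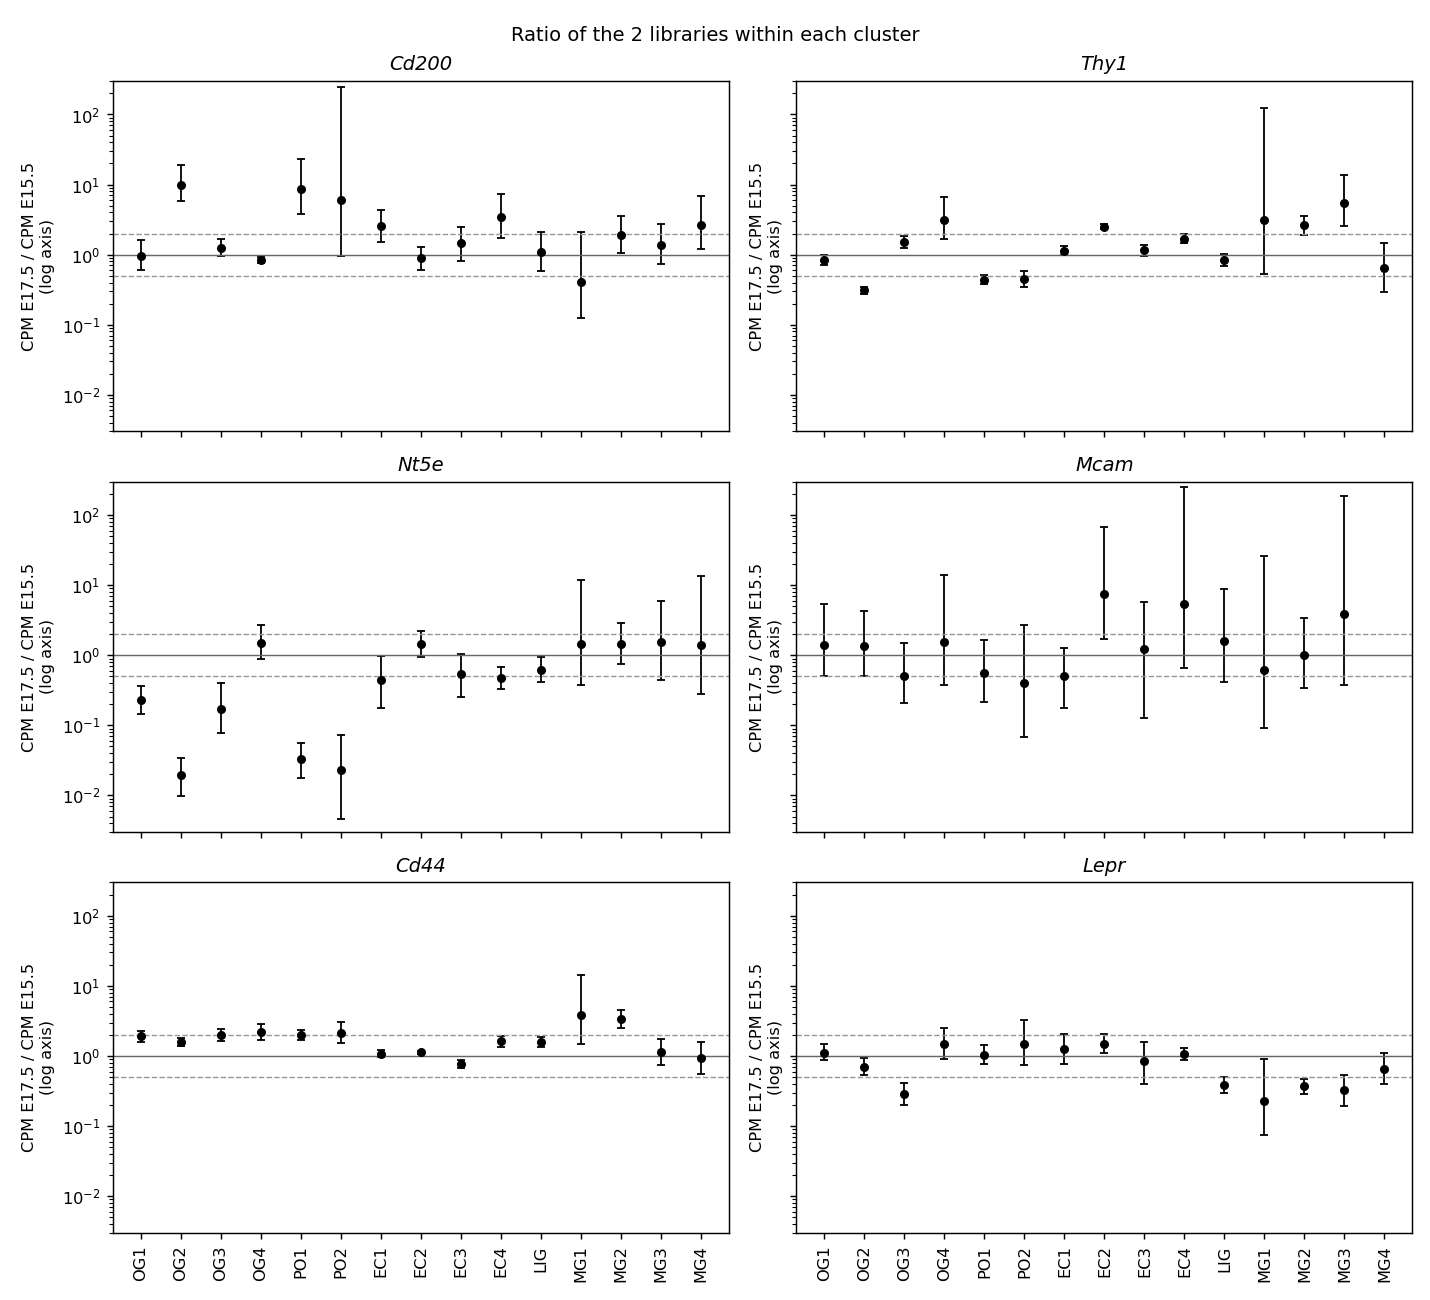
Ratio of the E17.5 to the E15.5 level (CPM over CPM, log axis) of each gene in the 15 clusters, with 95% intervals for counting error and dashed lines at the 2-fold limit. The *Nt5e* points of OG2, PO1 and PO2 lie far below 1, *Cd200* lies above 1 in OG2 (9.99) and PO1 (8.52), and the wide intervals of *Mcam* show how few UMIs it had.

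*Mcam* was at most 6.20 CPM in every labelled cluster. Labelled cells held 68 *Mcam* UMIs at E15.5 (1.40 CPM) and 185 at E17.5 (2.00 CPM), and clusters ranged from 0 to 6.20 CPM and from 1.02 to 2.93 CPM. No pair of neighbouring clusters in either order had intervals apart. A UMI was found in 1.01% and 2.59% of labelled cells, against 1.27% and 1.08% of myeloid-like cells, so the E15.5 share is read as background, and at E17.5 the labelled cells were the deeper ones. In EC1 at E15.5, 17 UMIs lay in 7 cells, with 6 in 1 cell. Of its 4 pairs past the 2-fold limit between the libraries, only EC2, with 2 and 13 UMIs, had an interval that left out 1 (7.53, 1.70 to 68.7).

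Among labelled clusters *Cd44* was highest in ectocranial cells. EC2 led in the E15.5 library with 317 CPM (306 to 329) and in the E17.5 library with 356 CPM (343 to 369), 3.14- and 3.12-fold above the other labelled cells, where the background share of genes above was 2.43%. EC1 followed with 215 and 231 CPM, which EC2 exceeded 1.48- and 1.54-fold, and EC3 held 185 and 141 CPM. EC4, also ectocranial, did not share the level, since EC2 exceeded it 5.82- and 4.06-fold. The suffixes of E17.5 gave 454, 320 and 313 CPM in EC2, the first outside the intervals of the others.

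The 4 meningeal clusters lay lowest, at E15.5 between 15.3 and 33.1 CPM and at E17.5 between 25.0 and 62.0 CPM, and all 4 were below the other cells. Over the osteogenic clusters *Cd44* went from 68.9 to 134 CPM, a ratio of 1.94 (1.81 to 2.09). OG4 (2.19-fold), PO2 (2.12-fold), MG1 (3.87-fold) and MG2 (3.34-fold) passed the 2-fold limit, and no cluster was 2-fold lower, although EC3 had a ratio of 0.762 (0.670 to 0.865). By suffix of E17.5 the ratio was 3.84, 1.82 and 1.92 in OG4, which passed the limit in suffix 1 only. In PO2 it was 2.78, 2.28 and 1.81. Suffix 1 gave the highest ratio in each osteogenic and proliferating cluster. Across clusters *Cd44* and *Thy1* had a similar order, with r of 0.70 at E15.5 and 0.88 at E17.5.

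*Lepr* was spread over meningeal, osteogenic and ectocranial cells. Among labelled clusters MG2 led at E15.5 with 59.3 CPM (50.9 to 68.7). EC4 (45.4), MG4 (37.6), OG1 (34.3), MG3 (33.1), LIG (32.6) and OG3 (32.5 CPM) followed with overlapping intervals. At E17.5 EC4 led with 49.0 CPM (42.7 to 55.9) and OG1 held 38.4 CPM (35.0 to 42.1). EC4, marked by *C1qtnf3* and *Igfbp3*, was above the other cells 2.32- and 2.74-fold, where the background was 1.26%. EC3, another ectocranial cluster, was below, so that EC4 exceeded it 6.86- and 8.77-fold.

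Of the 17 lower pairs, 5 were *Lepr*. MG2 went to 22.1 CPM (0.37-fold), MG3 to 10.8 (0.33-fold), MG1 to 3.45 (0.23-fold), LIG to 12.7 (0.39-fold) and OG3 to 9.24 CPM (0.28-fold). The MG1 ratio (0.0751 to 0.913) rested on 4 UMIs at E15.5. The 4 meningeal clusters together went from 46.1 to 13.6 CPM, a ratio of 0.296 (0.245 to 0.358). That sum also reflects the cells of MG1, 28 at E15.5 and 423 at E17.5. MG4 alone had a ratio of 0.658 (0.397 to 1.12), whose interval held 1. EC4 and OG1 held their levels within overlapping intervals. No cluster had a *Lepr* level 2-fold higher at E17.5.

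Cells without an authors' label were clustered anew and named by fixed markers. They numbered 2875 at E15.5 and 1937 at E17.5, of which 1232 and 467 stayed unnamed. *Mcam* was highest among these cells. Pericyte-like cells (191 and 174 cells) held 123 and 152 CPM, which is 88.0- and 76.2-fold the labelled cells, and endothelial-like cells (46 and 119 cells) held 59.8 and 107 CPM. Glia-like cells, seen at E17.5 only (32 cells), held 122 CPM. The level outside the labelled subset was thus higher in each of these types than in any labelled cluster.

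*Thy1* was also high in pericyte-like cells, with 252 and 321 CPM, or 2.89- and 3.76-fold the labelled cells. The unnamed cluster 13 of E17.5 (92 cells) held 299 CPM of *Thy1* (264 to 337) and 41.9 CPM of *Mcam*. In endothelial-like cells at E15.5 the 87.8 CPM of *Thy1* came from 47 UMIs in 5 of 46 cells, and at E17.5 it was 15.4 CPM. *Cd200* was not limited to OG4, since glia-like cells held 349 CPM and endothelial-like cells 84.1 and 176 CPM. Pericyte-like cells held 36.3 CPM of it in the earlier library and 90.3 CPM in the later. Osteoclast-like cells, named apart from the myeloid-like ones, held 43.0 and 20.9 CPM of *Cd200*. After thinning, 10.2% and 3.57% of them held a UMI of it. Myeloid-like cells, whose receptor binds the protein, held 3.46 and 4.59 CPM.

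Different clusters made up the chondrocyte-like class in each library, so its values are not compared between the stages. At E15.5 it joined cluster 6 (317 cells, with *Sox9* and *Matn1* among its leading genes) and cluster 13 (162 cells, led by *Ttr* and *Rlbp1*). At E17.5 it joined cluster 8 (187 cells, led by *Matn1* and *Col2a1*) and cluster 7 (131 cells, led by *Clu*, *Prg4* and *Gdf5*, with no chondrocyte marker among its 10 leading genes). A cluster led by *Clu* at E15.5, cluster 0 with 239 cells, stayed unnamed. *Cd200* was at most 15.6 CPM in clusters 6 and 13, and 66.0 CPM in cluster 8, 140 CPM in cluster 7 and 89.1 CPM in cluster 0. *Nt5e* was 9.92 and 6.61 CPM in clusters 6 and 13, then 14.2 CPM in cluster 8, 41.6 CPM (30.2 to 55.8) in cluster 7 and 14.6 CPM in cluster 0. The level in cluster 7 was thus above every labelled cluster of the same library.

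In other types 0 UMIs of *Nt5e* were found in endothelial-like cells, which allows up to 5.61 and 1.93 CPM, and in glia-like cells, up to 8.95 CPM. *Cd44* reached 143 and 165 CPM in osteoclast-like and 154 and 104 CPM in myeloid-like cells. *Lepr* was at most 17.3 CPM in each named type. Among unnamed clusters of E15.5 it was 79.1 CPM (64.4 to 96.1) in cluster 12, 73.4 CPM (56.0 to 94.4) in cluster 1 and 68.5 CPM (55.9 to 83.1) in cluster 0.

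**Figure D4:**
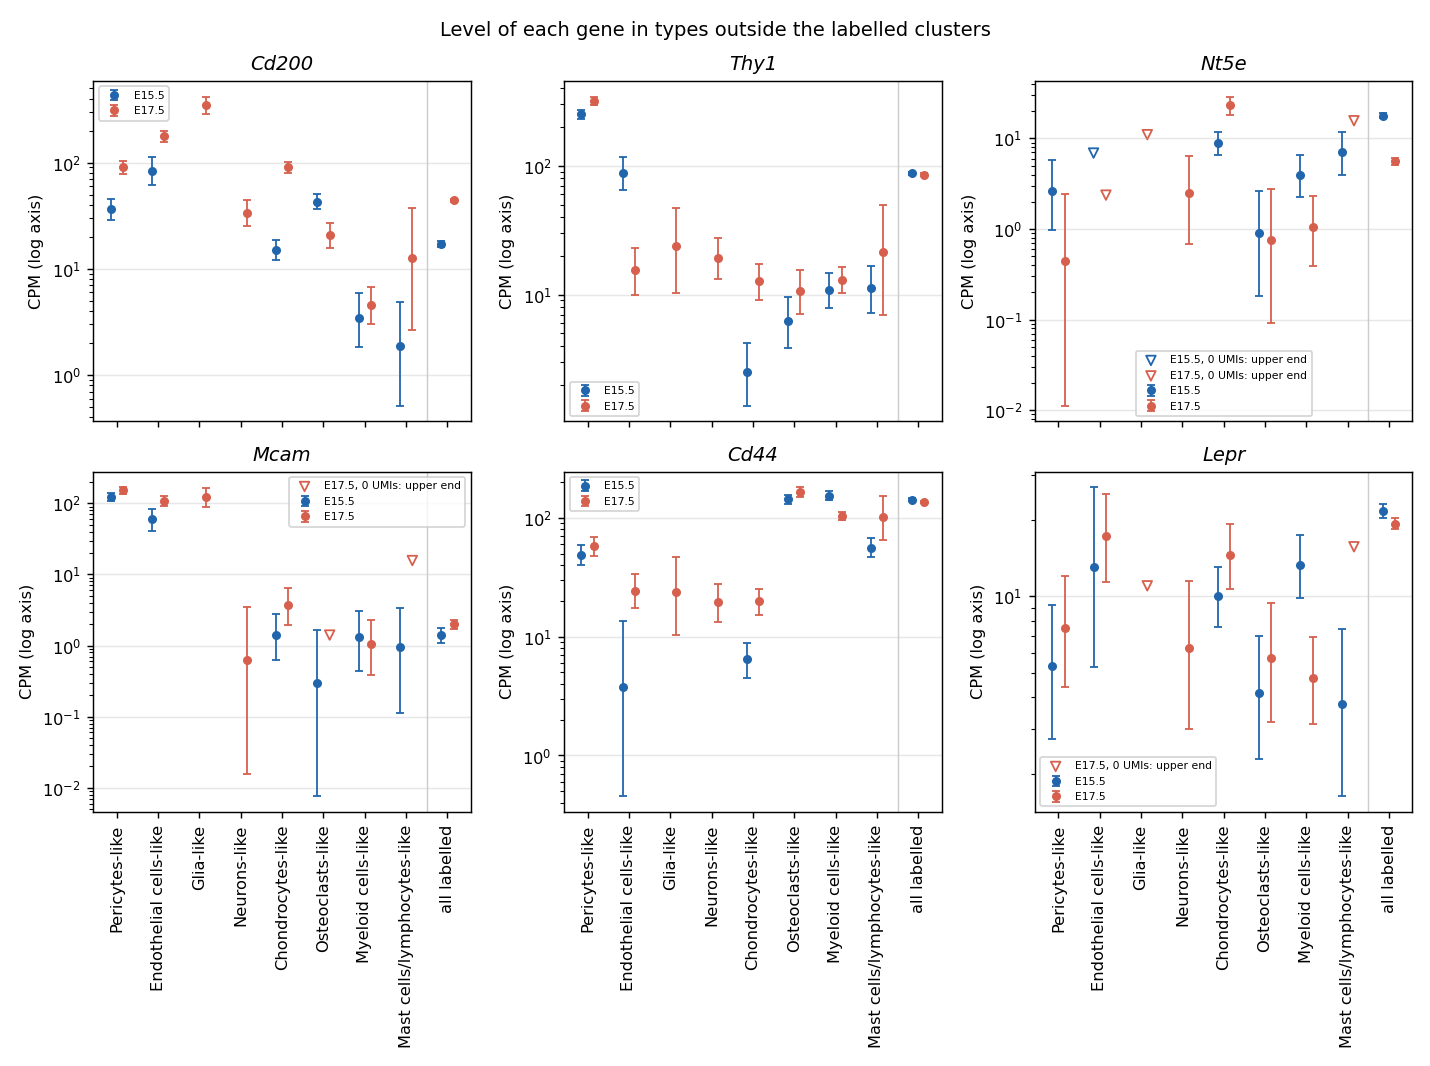
Level of each gene (CPM, log axis) in cell types outside the labelled subset, with exact 95% Poisson intervals, at E15.5 and E17.5. *Mcam* stands at 123 and 152 CPM in pericyte-like cells, against 1.40 and 2.00 CPM over the labelled clusters.

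Other antigens used in such sorts were counted by the same rule. Of 17 listed, 16 had enough UMIs, and 9 of 240 pairs (3.75%) were above, against 1.88% of all pairs. *Ly6a* (Sca-1) was above in EC2, 5.28- and 27.4-fold, and *Tek*, the Tie2 receptor used as a negative marker, was above in EC2 (2.36- and 24.4-fold) and EC3. *Itgb3* was above in EC2, *Pdpn* (podoplanin) in EC1, *Ngfr* (CD271) in EC4, *Enpep* in MG2 and MG4, and *Alcam* (CD166) in LIG, 3.45- and 3.33-fold. Below were 44 pairs (18.3%), against 4.64%. The median ratio to the other cells over the pairs of the list was 0.839, against 0.961 over all genes.

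Of 8 genes used for lineage tracing in the skeleton, 7 had enough UMIs and 6 of 105 pairs (5.71%) were above, against 1.88% of all pairs. They were the limb and skull mesenchyme factor *Prrx1* in EC4 and LIG, *Six2* in MG1, MG2 and MG3, and the chemokine gene *Cxcl12* in MG1. *Gli1*, *Axin2*, *Ctsk* and *Ddr2* were above in no cluster. The median ratio was 0.904.

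Of 25 partners of the members, 19 had enough UMIs and 13 of 285 pairs (4.56%) were above, with the same background. Around *Nt5e*, the phosphatase *Alpl* was above in OG3 and OG4, *Enpp1* in OG3, and the nucleoside transporter *Slc29a1* in PO1. The ectonucleotidase *Entpd1* was counted in MG4 on only 2 UMIs at E15.5, under the 3-count floor, and 4 later. Around *Cd44*, the hyaluronan synthases *Has1* and *Has2* were above in EC2, the cluster that led for their receptor, and the ligand *Spp1* (osteopontin) was above in OG3 and OG4, in OG4 by 62.5- and 10.2-fold. *Vcan* was above in MG3 and the linker *Ezr* in MG2 and MG3. *Wnt5a*, a ligand of *Mcam*, was above in EC4. Labelled cells held 0 UMIs of *Lep* in either library, and 14 and 31 UMIs of the receptor *Cd200r1*. The median ratio over the partners' pairs was 0.883.

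The genes whose cluster pattern was most like each member's were ranked by the lower of both libraries' Pearson r over 15 clusters, as a description of clusters that share library and depth. For *Cd200* they were *Slc36a2*, *Spns2* and *Enpp6*, each with r of 0.92 and each highest in OG4 in both libraries. For *Thy1* they were *Sh3bp4* (0.90), *Cav1* (0.83) and *Tnfaip6* (0.83), and for *Cd44* *Oxct1* (0.88), *Rnf165* (0.86) and *Creb5* (0.85). The best for *Nt5e* were *2310022B05Rik* (0.76), *Robo2* (0.73) and *Pcdh18* (0.70). *Lepr* gave *Armc10* (0.65), *Tiam1* (0.65) and *Pthlh* (0.63), and *Mcam*, with its few UMIs, gave *Rufy3* (0.66), *Wapl* (0.64) and *Rsbn1* (0.63). No member was among the 3 nearest of another. With a Spearman correlation, none of the 3 named for *Cd200* stayed among its 3 nearest.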

How the data were processed

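Single-cell RNA libraries of the coronal suture, 1 per stage, were analysed from the matrices the authors deposited, which hold UMI counts per gene and barcode and are not normalized. Per the authors' methods, reads were counted with Cell Ranger on mm10. Its version is not the same in the methods and in the E15.5 file header. The submitters' processing notes also name FastQC 0.11.7, MultiQC 0.9 and Seurat 3.2.0. The cluster of each cell came from the authors' table, whose deposited percent columns (mitochondrial and hemoglobin UMIs), SCTransform totals and cell cycle scores were not used. Of 5340 labelled E15.5 cells 5335 were found in the matrix, and each held fewer UMIs there than in the authors' table (a median of 74.0%, range 30.5% to 81.5%), while all 6830 cells of E17.5 matched it exactly. The depths given are those of the matrices. The E15.5 gene list differs from the E17.5 list, with 27514 genes shared.

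UMIs were summed per cluster and library and given as CPM, with exact Poisson and Clopper-Pearson 95% intervals that cover counting error only. Shares were also computed after each cell was thinned to 3000 UMIs, leaving out shallower cells (5175 of 5335 and 6830 of 6830 stayed). With 1 library per stage no test was run, and a 2-fold limit took its place. Cells outside the labels were kept from 1000 UMIs and 1000 genes upwards, with mitochondrial UMIs up to 7.5% and those of each hemoglobin up to 3% (8210 and 8767 cells together with all labelled ones), and were clustered by the Leiden method (2000 variable genes, 30 components, resolution 1) and named by at least 3 markers. Doublets were kept, and as an alternative the top 6% of Scrublet scores per suffix were left out. The other alternatives were the scaling, the denominator, the comparison cells, the fold limit, single barcode suffixes and, for similar genes, another pseudocount or rank correlation. The genes named were the members, the listed sort antigens, lineage-tracing genes and partners, and the 3 most similar genes per member. Genes in the label check were named from the marker list. The members and lists were chosen with earlier results of these data known. Positions are from GENCODE vM21. Of 6 members, 5 had an entry in the RefSeq promoter table. Python 3.11.15, numpy 2.4.6, pandas 2.3.3, SciPy 1.17.1 and scanpy 1.11.5 were used, and the steps were tested on simulated data.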

Additional observations from a re-analysis of the deposited data

Results flagged for a closer look

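The ratio of *Nt5e* in a cluster to its level in the other labelled cells lay on opposite sides of 1 in the 2 libraries, each by at least 2-fold and with intervals that left out 1, in 4 clusters. In OG2 the ratio was 6.25 at E15.5 and 0.253 at E17.5, in PO1 3.93 and 0.350, and in PO2 4.66 and 0.327. In OG4 it was 0.454 at E15.5 and 2.62 at E17.5. The other cells of OG4 include OG2, PO1 and PO2, and the level of OG4 itself had a ratio of 1.49 (0.873 to 2.75) between the libraries. With 1 library per stage the difference between the stages was not tested.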

How the results depend on the processing

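Of 90 member and cluster pairs, 3 were above and 18 below the other cells in both libraries, 18 were higher and 17 lower at E17.5. Against the median of the other clusters, 5 were above and 9 below. A 1.5-fold limit gave 6 above, 31 below and 30 higher at E17.5, and a 3-fold limit gave 9 lower. With at least 50 UMIs in both sums together, 11 were lower. In leave-one-out runs over the 3 barcode suffixes, the counts were 3 above each time, 19 to 21 below, 16 to 21 higher and 16 to 19 lower. Of 454 recomputed ratios of a level to the other cells, 382 stayed within the interval, 69 left it and 3 changed side, and of 396 recomputed ratios between the libraries 383 stayed within it and 13 left it with none changing side. The 3 that changed side were *Mcam* in MG1 at E15.5 with the mean of cells (0.851), *Nt5e* in PO2 at E17.5 with suffix 1 alone (1.38) and *Mcam* in EC1 at E15.5 as a share of thinned cells (0.672). The cause was not tested. Of the 3 genes named as most like each member, 1 to 3 stayed with a pseudocount of 1, and 0 (*Cd200*) to 2 with a Spearman correlation. The share of OG4 cells with the sort combination was 6.25% and 5.31% after thinning. No paired analysis was possible because each stage has 1 library. The fewest UMIs stand behind *Mcam*, with 68 and 185 over all labelled cells, and 30 UMIs stand behind *Nt5e* in OG2, PO1 and PO2 together at E17.5.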
